A study of Homo sapiens with 6 samples.

Results

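The genes described here act in the G2 phase of the cell cycle and in mitosis, the division of the nucleus, and were read in HepG2 cells, a human hepatoma line, with and without a plant extract. The list holds 49 genes chosen by name, with earlier results of these data known. They cover cyclins and kinases that start mitosis, the spindle checkpoint, kinetochore proteins, spindle motors, regulators of anaphase and cytokinesis, and proteins that shape chromosomes. Of these, 48 had a measured row of their own among the 18372 genes measured in all. CENPA, the histone H3 variant of centromeres, was not measured separately because its row also carries SLC35F6. Leaf-treated cells had received a water extract of Barringtonia racemosa leaves at 50 µg/ml for 24 h, and untreated cells had not. Both groups were grown in DMEM with 10% foetal bovine serum, penicillin and streptomycin, and each was read on 3 Affymetrix Human Gene 1.0 ST arrays from total RNA. HepG2 is a single line of tumour origin, so both groups describe that line alone. The labels call the replicates biological without stating that cultures or days were separate, and p-values therefore measure no more than the spread between these 6 samples. The number of arrays limits the precision.

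Entry into mitosis is driven by cyclin B bound to the kinase CDK1, which the phosphatase CDC25C activates and which Polo-like kinase PLK1 and the Aurora kinases assist. The spindle checkpoint then holds the anaphase-promoting complex, a ubiquitin ligase, until every kinetochore is attached to microtubules, after which cyclin B and securin are destroyed. Many of these genes are transcribed late in the cycle through a CHR element bound by the MuvB complex with B-MYB or FOXM1, often beside CCAAT boxes bound by NF-Y, while genes of the G1/S boundary more often carry E2F sites. In tissue, their transcripts mark dividing cells, and in cultured hepatoma cells they are high because the line proliferates.

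Promoters were examined because this shared control was not used to choose the genes. The RefSeq sequences of GRCh38.p14, from 250 bases before the annotated start of a gene to 50 bases after it, were found for 41 of the 48 genes. The sequences below belong to genes described with values further on: 6 whose promoter holds both motifs and CKAP2, which holds neither. They run 5′ to 3′ on the strand of the gene, and capitals mark the CHR motif TTTGAA and the CCAAT box CCAAT, searched on both strands, so that TTCAAA and ATTGG are the same motifs read on the other strand.
HMMR: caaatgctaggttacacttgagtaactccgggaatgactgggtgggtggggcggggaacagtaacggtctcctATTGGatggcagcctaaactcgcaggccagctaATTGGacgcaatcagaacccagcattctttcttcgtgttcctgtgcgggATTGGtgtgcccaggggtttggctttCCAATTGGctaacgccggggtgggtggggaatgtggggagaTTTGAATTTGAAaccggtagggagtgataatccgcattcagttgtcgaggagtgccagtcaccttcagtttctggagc
CCNB2: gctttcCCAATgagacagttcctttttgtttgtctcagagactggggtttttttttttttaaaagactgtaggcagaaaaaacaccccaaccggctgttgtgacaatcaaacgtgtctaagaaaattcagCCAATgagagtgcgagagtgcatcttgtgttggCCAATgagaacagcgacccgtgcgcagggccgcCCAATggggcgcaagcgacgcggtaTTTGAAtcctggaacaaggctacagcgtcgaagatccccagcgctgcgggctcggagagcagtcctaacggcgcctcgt
KIF11: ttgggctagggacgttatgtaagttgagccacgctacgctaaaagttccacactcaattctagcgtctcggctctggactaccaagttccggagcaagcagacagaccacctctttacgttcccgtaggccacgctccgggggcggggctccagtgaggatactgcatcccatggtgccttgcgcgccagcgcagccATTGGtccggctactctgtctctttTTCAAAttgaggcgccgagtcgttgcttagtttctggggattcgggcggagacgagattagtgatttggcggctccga
PLK1: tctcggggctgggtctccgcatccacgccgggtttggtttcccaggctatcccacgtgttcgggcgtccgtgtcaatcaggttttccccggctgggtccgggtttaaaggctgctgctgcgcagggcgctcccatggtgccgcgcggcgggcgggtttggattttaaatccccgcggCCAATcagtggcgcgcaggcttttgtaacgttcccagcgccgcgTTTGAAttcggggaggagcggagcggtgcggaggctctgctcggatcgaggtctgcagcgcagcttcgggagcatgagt
MAD2L1: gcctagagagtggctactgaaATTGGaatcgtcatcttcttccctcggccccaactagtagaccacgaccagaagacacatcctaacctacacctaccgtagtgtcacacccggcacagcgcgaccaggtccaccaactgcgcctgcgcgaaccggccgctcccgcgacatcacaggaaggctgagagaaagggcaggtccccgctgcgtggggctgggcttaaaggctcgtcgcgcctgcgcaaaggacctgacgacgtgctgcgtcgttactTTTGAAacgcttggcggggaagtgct
MKI67: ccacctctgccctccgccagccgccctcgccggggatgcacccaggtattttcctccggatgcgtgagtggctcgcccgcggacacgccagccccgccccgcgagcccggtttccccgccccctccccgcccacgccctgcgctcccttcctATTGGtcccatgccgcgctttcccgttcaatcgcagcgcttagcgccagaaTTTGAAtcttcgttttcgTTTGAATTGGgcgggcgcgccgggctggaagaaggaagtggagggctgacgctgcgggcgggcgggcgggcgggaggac
CKAP2: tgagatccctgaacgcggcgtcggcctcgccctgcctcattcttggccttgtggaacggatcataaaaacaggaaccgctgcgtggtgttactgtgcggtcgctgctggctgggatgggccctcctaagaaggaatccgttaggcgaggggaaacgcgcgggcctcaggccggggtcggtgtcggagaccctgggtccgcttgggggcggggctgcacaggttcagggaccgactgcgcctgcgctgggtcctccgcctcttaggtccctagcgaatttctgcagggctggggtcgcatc
HMMR lies at chr5:163460382-163460681 on the plus strand, CCNB2 at chr15:59104896-59105195 on the plus strand, KIF11 at chr10:92592880-92593179 on the plus strand and PLK1 at chr16:23678639-23678938 on the plus strand. MAD2L1 lies at chr4:120066799-120067098 on the minus strand, MKI67 at chr10:128126374-128126673 on the minus strand and CKAP2 at chr13:52455738-52456037 on the plus strand. In the HMMR promoter 2 CHR motifs stand end to end at positions -28 and -22 from the start, and 2 of its 5 CCAAT boxes overlap as CCAATTGG read on both strands. The CCNB2 promoter holds 4 CCAAT boxes before a CHR motif at -29, and PLK1 has 1 of each, at -73 and -29. Positions give the first base of a motif. In KIF11 the CHR motif at -28 is read on the opposite strand, in MAD2L1 it lies after the start, at 25, and in MKI67 the CHR motif at -29 overlaps the CCAAT box at -24.

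The CHR motif was found in 30 of the 41 promoters, 73.2%, against 11.9% of the 14207 promoters of genes tested and 15.4% of all 27305 promoters of this length. CCAAT boxes were also in 30 of the 41, 73.2%, against 36.3% of the promoters of genes tested and 35.7% of all. Both motifs stood together in 23 of the 41, 56.1%, against 4.86% and 6.08%, and neither was found in 4, namely CDC25C, CENPE, CKAP2 and KIF2C, 9.76% against 56.7% and 55%. The 39 CHR motifs had a median position of -29, and 28 of them lay between -60 and 50. The 62 CCAAT boxes lay further from the start, at a median of -71. The E2F motif, searched as TTTCCCGC, TTTCGCGC, TTTGCCGC or TTTGGCGC on both strands, was in 3 of the 41, CDK1, KIF15 and NUSAP1, 7.32% against 4.52% of the promoters of genes tested. A match shows that the letters are there and does not show that a factor binds. Nor does the lack of an exact match in this window show that a gene lacks the element.

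**Figure D1:**
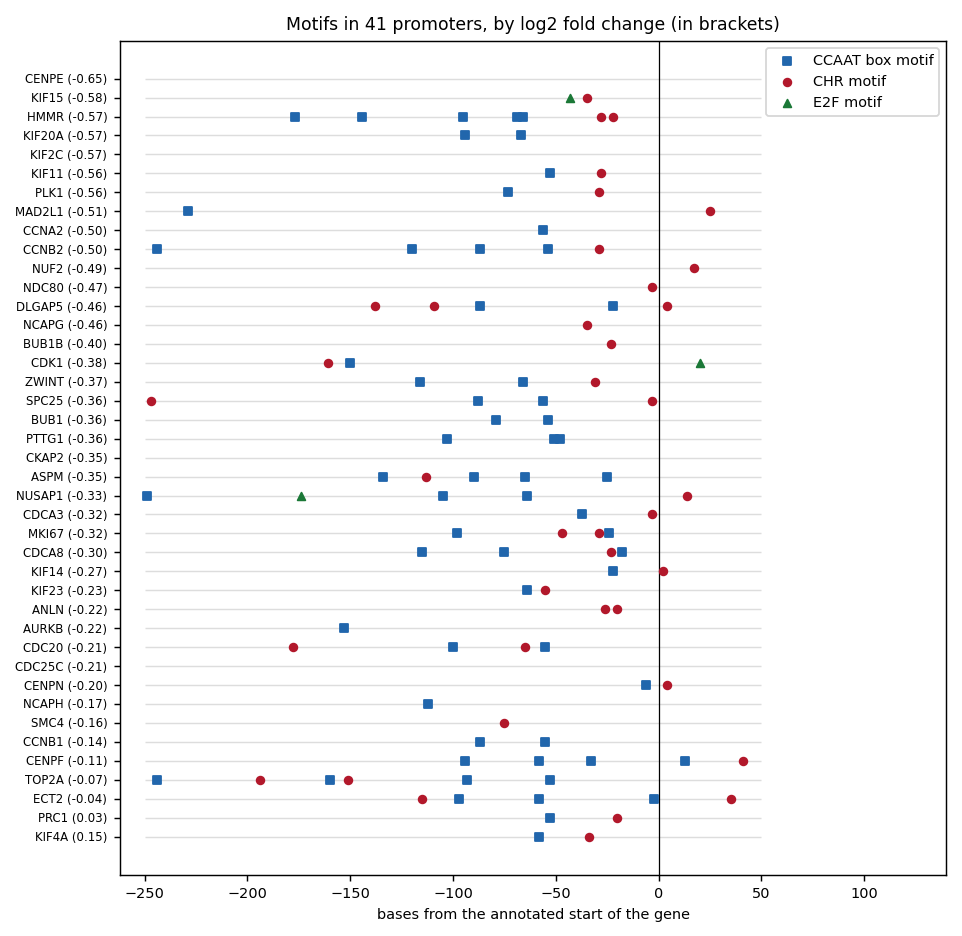
Positions of the CHR motif (circles), the CCAAT box (squares) and the E2F motif (triangles) in the 41 promoters, in bases from the annotated start of each gene, which is the vertical line; genes run from the lowest log2 fold change at the top, in brackets, to the highest. The median position is -29 for CHR motifs and -71 for CCAAT boxes, and single CHR motifs range from -247 to 41.

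Correlations between arrays were taken over the 28829 rows not at 0 on all arrays. Leaf-treated array 2 lay closer to the untreated arrays, with 0.991 to 0.992, than to leaf-treated arrays 1 and 3, with 0.987 and 0.986. Leaf-treated arrays 1 and 3 had the narrowest distributions, with interquartile ranges of 2.05 and 2.03 on the log2 scale against 2.19 to 2.30 on the untreated arrays, and leaf-treated array 2 had 2.29. In the deposited values, brighter clusters were also lower as a class in leaf-treated cells. The median log2 fold change was -0.10 over the 5396 clusters with a mean log2 value of at least 5, and 0.0108 over all 19291 clusters. Of the 48 genes, 45 are in that brighter class, and the main counts below are therefore also set against it. The liver identity of the cells was checked with 10 measured hepatocyte markers, which had mean log2 values of 7.88 to 11.42 on untreated arrays and a median log2 fold change of -0.099. Of the other cell types, 3 keratinocyte markers of 5 listed were measured, KRT5, KRT14 and KRT16, and had mean log2 values of 3.41 to 4.24 on leaf-treated and 3.21 to 3.90 on untreated arrays, where olfactory receptor genes, a stand-in for background, had array medians of 2.77 to 2.86. Their summed level on the linear scale was 51, 36 and 50 on leaf-treated and 38, 34 and 39 on untreated arrays. None of the 3 was at 0, and TP63 and KRT6A were not measured. The 5 fibroblast markers had mean log2 values of 2.61 to 4.43 on leaf-treated and 2.63 to 4.19 on untreated arrays, and a summed level of 61, 54 and 66 on leaf-treated and 52, 56 and 55 on untreated arrays. Both sums were higher on leaf-treated arrays 1 and 3 than on any other array, and their part in the results was not tested. The lower quartile of all clusters tested was also highest on these 2 arrays, at 3.14 on each, against 3.03 to 3.08 on the others. Dim clusters in general thus read higher there, and the source of the higher sums was not tested. The median log2 fold change of the fibroblast markers was 0.042 as deposited and -0.0249 after quantile normalization. That of the keratinocyte markers was 0.27 and 0.22. The 3 measured blood markers of 4 had summed levels of 25, 24 and 25 on leaf-treated and 24, 26 and 24 on untreated arrays.

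Transcripts for mitosis were lower in leaf-treated cells across nearly the whole list, by modest amounts. The median log2 fold change of the 48 genes was -0.35, a median level of 78.7% of untreated cells, and single genes ranged from -0.65 for CENPE to 0.15 for KIF4A. In all, 46 of 48 genes had a log2 fold change below 0, where 46.8% of all clusters and 72.2% of the brighter ones did. An unadjusted p under 0.05 with a lower level in leaf-treated cells was reached by 31 of the 48, 64.6%, against 5.9% of all clusters and 15.5% of the brighter ones, and 0 of the 48 reached it with a higher level, against 3.87% of all clusters and 3.08% of the brighter ones. The lowest untreated array was above the highest leaf-treated array for 26 genes, 54.2%, against 7.41% of all clusters and 17.7% of the brighter ones, and the reverse held for 0, against 6.14% of all clusters and 4.26% of the brighter ones.

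None of the 48 passed the Benjamini-Hochberg adjustment over the 19291 clusters in limma, where 1 cluster did, 0.00518%, and the adjusted p-values of the 48 ran from 0.207 to 0.929. The series design set a looser rule, 1.5 fold or more at an unadjusted p under 0.05, which 1 of the 48 met on the lower side, CENPE, 2.08%, against 0.57% of all clusters and 1.52% of the brighter ones, and 0 on the higher side, against 0.27% and 0.556%. The genes of the list share cells and arrays, so their counts do not come from 48 separate observations. The list was also chosen with earlier results of these data known, so the shares describe it and do not test it. In RNA from whole cultures, fewer cells in G2 and mitosis and less of these transcripts per cell cannot be told apart. Without leaf-treated array 1, leaf-treated array 3 or untreated array 1 the count of 31 was 18 each time, against a background of 3.66%, 3.8% and 2.91% of clusters, and without leaf-treated array 2 it was 33, against 11.7%. The count of 1 by the rule of the series design was 0, 11 and 4 without leaf-treated arrays 1, 2 and 3. It was 6 and 2 without untreated arrays 2 and 3. The share of all clusters that met this rule was not computed with an array left out. These counts therefore have no background beside them and are not a result about the 48 genes alone.

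The leaf-treated arrays did not carry the difference equally. Relative to the untreated mean, the median of the 48 genes was -0.45 on leaf-treated array 1, -0.16 on array 2 and -0.38 on array 3, against 0.03, -0.05 and 0.03 on untreated arrays 1, 2 and 3. Array 2 was the highest of the leaf-treated arrays for 38 of the 48 genes, and the share of all clusters was not computed. The brighter clusters as a class were also highest on array 2, with medians of -0.14, 0.01 and -0.16 on leaf-treated arrays 1, 2 and 3. Below the untreated mean lay 46 genes on array 1, 46 on array 2 and 48 on array 3, or 95.8%, 95.8% and 100%, against 75.4%, 47.2% and 78% of the brighter clusters on the same arrays. Below the lowest untreated array lay 41, 28 and 45 genes on leaf-treated arrays 1, 2 and 3, or 85.4%, 58.3% and 93.8%, against 59%, 24.9% and 63.4% of the brighter clusters. On arrays 1 and 3 most of the brighter clusters thus lay on the same side, and on array 2 they did not. The spread between replicates was also wider after treatment, with a median SD over the 48 genes of 0.19 on leaf-treated and 0.11 on untreated arrays (n = 3 each), where all clusters had 0.14 and 0.09.

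**Figure D2:**
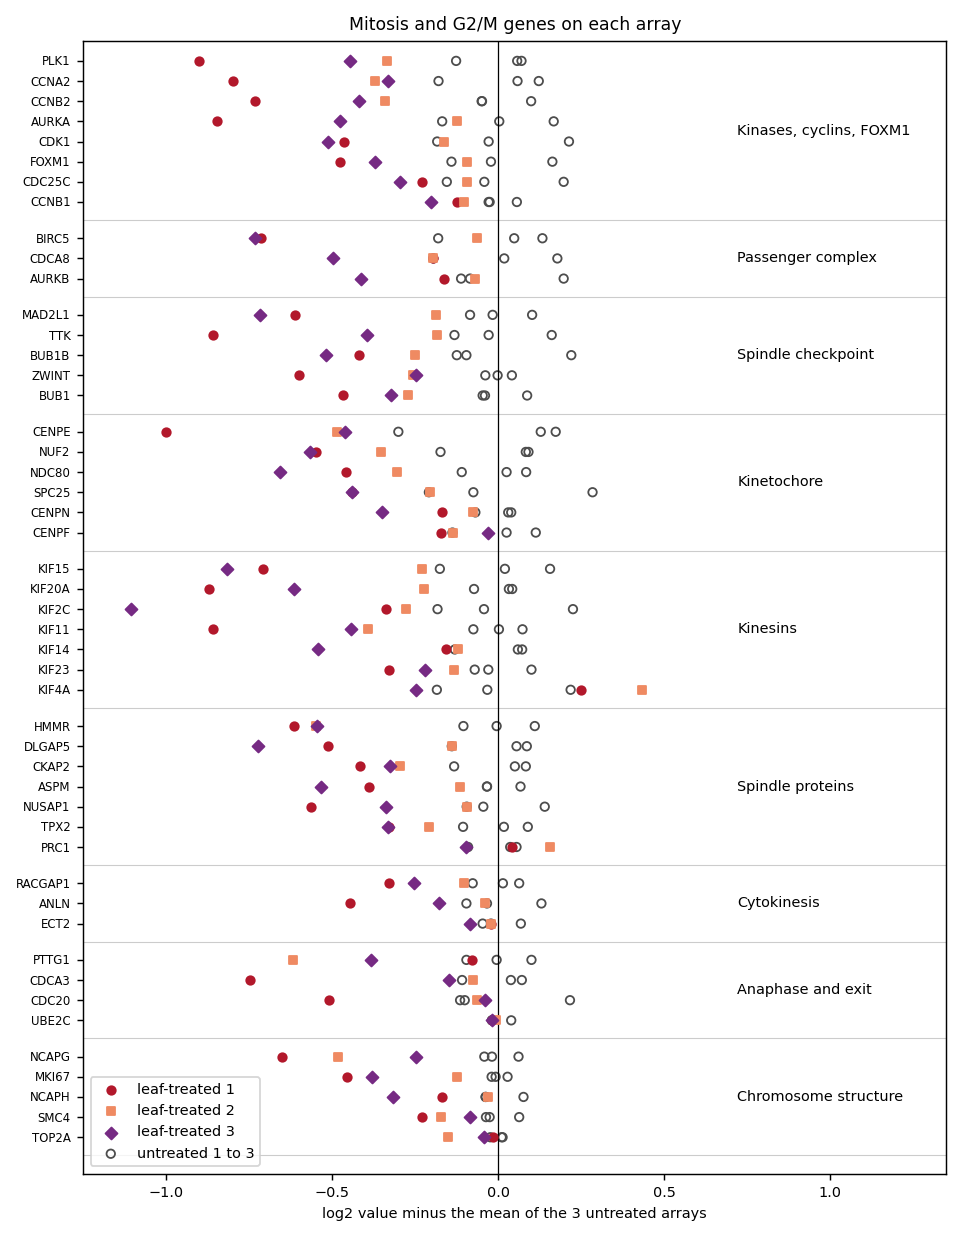
Log2 value of each of the 48 genes on each array minus the mean of the 3 untreated arrays, with filled symbols for leaf-treated arrays 1, 2 and 3 and open circles for the untreated arrays, grouped by role. Most filled symbols lie left of 0, and the squares of leaf-treated array 2 lie nearest to the open circles, with medians of -0.45, -0.16 and -0.38 on leaf-treated arrays 1, 2 and 3.

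In the role groups that follow, each count of genes lower at an unadjusted p under 0.05 stands beside 5.9% of all clusters and 15.5% of the brighter ones, each count without overlap beside 7.41% and 17.7%, and each median beside 0.0108 and -0.10. Cyclins, kinases and FOXM1 that drive entry into mitosis were below 0 in all 8 cases, with a median log2 fold change of -0.43, and 6 of 8 had an unadjusted p under 0.05. CCNB2, a B-type cyclin, had log2 values of 7.21, 7.60 and 7.52 on leaf-treated arrays 1, 2 and 3, against 7.89, 7.89 and 8.04 on untreated arrays 1, 2 and 3. PLK1, the Polo-like kinase, had 7.70, 8.27 and 8.16 in leaf-treated cells, against 8.66, 8.48 and 8.68 in untreated cells. For both genes every leaf-treated array lay below every untreated one, and array 1 was lowest, with log2 fold changes of -0.50 (SE 0.12) for CCNB2 and -0.56 (SE 0.16) for PLK1. The main partners at mitotic entry were less separated. CDK1, the kinase itself, had 5.39, 5.69 and 5.34 in leaf-treated cells, against 6.06, 5.82 and 5.67 in untreated cells, a log2 fold change of -0.38 (SE 0.14) with overlapping groups. CCNB1, the other B-type cyclin, had 5.85, 5.87 and 5.77 in leaf-treated cells, against 6.02, 5.94 and 5.94 in untreated cells, without overlap but with a log2 fold change of only -0.14 (SE 0.07). FOXM1, the transcription factor of late cell cycle genes, had 4.70, 5.08 and 4.81 in leaf-treated cells, against 5.04, 5.34 and 5.16 in untreated cells, and leaf-treated array 2 lay inside the untreated range (log2 fold change -0.31, SE 0.13). The adjusted p-values of these 5 genes ran from 0.383 to 0.513 in limma. CCNA2, the cyclin of S and G2 phase, had a log2 fold change of -0.50, AURKA, the Aurora kinase of the spindle poles, -0.48, and CDC25C, the phosphatase that activates CDK1, -0.21.

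The chromosomal passenger complex corrects faulty attachments, and AURKB is its kinase. Its 3 members had a median log2 fold change of -0.30, and 1 had an unadjusted p under 0.05. BIRC5, survivin, had 7.50, 8.15 and 7.48 on the leaf-treated arrays, against 8.35, 8.26 and 8.04 on the untreated arrays. Array 2 lay within the untreated range while arrays 1 and 3 lay below it, which gave a log2 fold change of -0.50 (SE 0.20). A second cluster of BIRC5 on the array had -0.40 (SE 0.15). CDCA8, borealin, had 5.84, 5.84 and 5.54 in leaf-treated cells, against 6.05, 6.21 and 5.84 in untreated cells, and the groups overlapped (log2 fold change -0.30, SE 0.13). AURKB had a log2 fold change of -0.22.

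The 5 genes of the spindle checkpoint had the narrowest range of the 9 role groups, with log2 fold changes of -0.51 to -0.36, an unadjusted p under 0.05 for all 5 and no overlap between groups for any. BUB1, a kinase that gathers checkpoint proteins at the kinetochore, had 7.68, 7.88 and 7.83 in leaf-treated cells, against 8.10, 8.11 and 8.24 in untreated cells. MAD2L1, which binds and holds back CDC20, had 6.48, 6.90 and 6.37 in leaf-treated cells, against 7.19, 7.01 and 7.07 in untreated cells. The untreated arrays were tightly grouped for both genes, and the log2 fold changes were -0.36 (SE 0.08) for BUB1 and -0.51 (SE 0.15) for MAD2L1, with adjusted p-values of 0.383 and 0.458 in limma. BUB1B, a part of the checkpoint complex that inhibits the ligase, had a log2 fold change of -0.40, the kinase TTK -0.48 and the kinetochore protein ZWINT -0.37.

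Kinetochore proteins join the centromere to microtubules, and 4 of the 6 measured had an unadjusted p under 0.05, with a median log2 fold change of -0.42. NUF2 and NDC80 are partners in the NDC80 complex, which grips the microtubule end. NUF2 had 6.99, 7.19 and 6.97 in leaf-treated cells, against 7.63, 7.37 and 7.63 in untreated cells, a log2 fold change of -0.49 (SE 0.10). NDC80 had 5.66, 5.81 and 5.46 in leaf-treated cells, against 6.20, 6.01 and 6.14 in untreated cells, a log2 fold change of -0.47 (SE 0.11). Both had an adjusted p of 0.383 in limma, and their groups did not overlap. SPC25, of the same complex, had -0.36. CENPE, a kinetochore motor named here after its values were seen, had 5.00, 5.52 and 5.54 in leaf-treated cells, against 6.18, 5.70 and 6.13 in untreated cells, a log2 fold change of -0.65 (SE 0.19; adjusted p = 0.469 in limma). Leaf-treated array 1 was the lowest of the 6 and the groups did not overlap. CENPF and CENPN, also of the kinetochore region, were nearer to 0, at -0.11 and -0.20.

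Kinesins move along microtubules and build the spindle, and the 7 listed had the lowest median of the 9 role groups, -0.56, although 1 of them was above 0. KIF11, which pushes the spindle poles apart, had 6.78, 7.24 and 7.19 in leaf-treated cells, against 7.71, 7.56 and 7.64 in untreated cells. KIF20A, a kinesin of the central spindle, had 7.04, 7.69 and 7.29 in leaf-treated cells, against 7.84, 7.94 and 7.95 in untreated cells. All leaf-treated arrays lay below all untreated ones for both, with array 1 lowest, and the log2 fold changes were -0.56 (SE 0.13) and -0.57 (SE 0.16). KIF15, which acts beside KIF11, had -0.58, the midzone kinesin KIF23 -0.23 and KIF14 -0.27. KIF2C and KIF4A are named after their values were seen. KIF2C, which shortens microtubules, had 5.08, 5.14 and 4.31 in leaf-treated cells, against 5.65, 5.38 and 5.24 in untreated cells, a log2 fold change of -0.57 (SE 0.24) that rested most on array 3. KIF4A, a chromosome-bound kinesin, went the other way on 2 arrays, with 5.35, 5.54 and 4.85 in leaf-treated cells, against 5.07, 4.92 and 5.32 in untreated cells, a log2 fold change of 0.15 (SE 0.19). KIF4A has a near-identical copy, KIF4B, and its value is uncertain where probes could read both.

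Among proteins that bind the spindle, 6 of 7 had an unadjusted p under 0.05, and the median log2 fold change was -0.35. HMMR, a spindle protein that also binds hyaluronan, had 7.00, 7.06 and 7.07 in leaf-treated cells, against 7.72, 7.51 and 7.61 in untreated cells. Its 3 leaf-treated arrays, array 2 included, lay close together and below all untreated arrays. HMMR had the smallest p of the list, with a log2 fold change of -0.57 (95% confidence interval -0.75 to -0.39, adjusted p = 0.207 in limma), or 67.3% of the untreated level. CKAP2, which stabilises microtubules and whose promoter held neither motif, had 7.86, 7.98 and 7.95 in leaf-treated cells, against 8.36, 8.14 and 8.32 in untreated cells, a log2 fold change of -0.35 (SE 0.08). TPX2, an activator of AURKA, had -0.29, DLGAP5 -0.46, ASPM -0.35 and NUSAP1 -0.33, all of them spindle proteins. PRC1, which bundles microtubules of the midzone, had 0.03, and -0.03 with arrays centred on their medians.

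Of the 3 cytokinesis genes 1 had an unadjusted p under 0.05, and their median log2 fold change was -0.22. RACGAP1, of the complex that positions the cleavage furrow, had 6.60, 6.83 and 6.68 in leaf-treated cells, against 6.95, 7.00 and 6.86 in untreated cells, without overlap (log2 fold change -0.23, SE 0.08). ANLN, the scaffold of the contractile ring, had 7.91, 8.32 and 8.18 in leaf-treated cells, against 8.32, 8.26 and 8.49 in untreated cells, and the groups overlapped (log2 fold change -0.22, SE 0.12). ECT2, the exchange factor that RACGAP1 recruits, had -0.04.

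Of the 4 genes of anaphase and mitotic exit, 1 had an unadjusted p under 0.05, and the groups overlapped for all 4, with a median log2 fold change of -0.26. PTTG1, securin, which holds separase inactive until anaphase, had 7.48, 6.94 and 7.17 in leaf-treated cells, against 7.46, 7.55 and 7.66 in untreated cells. Here leaf-treated array 2 was the lowest and array 1 lay within the untreated range, unlike most of the list (log2 fold change -0.36, SE 0.14). CDCA3, an adaptor of a ubiquitin ligase, had 4.03, 4.70 and 4.63 in leaf-treated cells, against 4.67, 4.82 and 4.85 in untreated cells, and array 1 made most of its log2 fold change of -0.32 (SE 0.18). CDC20, the activator of the anaphase-promoting complex that the checkpoint blocks, had -0.21. UBE2C, the E2 enzyme of that complex, had -0.02, and 0.07 after quantile normalization.

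Genes of chromosome structure had a median log2 fold change of -0.17, and 2 of 5 had an unadjusted p under 0.05. NCAPG, a condensin subunit, had 7.99, 8.16 and 8.39 in leaf-treated cells, against 8.70, 8.62 and 8.60 in untreated cells, a log2 fold change of -0.46 (SE 0.11). MKI67, the Ki-67 antigen that coats mitotic chromosomes and marks dividing cells, had 7.71, 8.04 and 7.78 in leaf-treated cells, against 8.19, 8.15 and 8.14 in untreated cells, a log2 fold change of -0.32 (SE 0.10). Neither overlapped, and their adjusted p-values were 0.392 and 0.469 in limma. TOP2A, the topoisomerase that untangles sister chromatids, had 6.05, 5.91 and 6.02 in leaf-treated cells, against 6.07, 6.04 and 6.07 in untreated cells. Its groups overlapped, and its log2 fold change of -0.07 (SE 0.07; adjusted p = 0.692 in limma) was 0.03 after quantile normalization. The condensin subunits NCAPH and SMC4 had -0.17 and -0.16.

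The motifs were also counted within the list, without a test. Of the 25 genes with a promoter and an unadjusted p under 0.05 on the lower side, 18 held the CHR motif, 72%, and of the other 16 it was 12, 75%. CCAAT boxes were in 17 of the 25, 68%, and in 13 of the 16, 81.2%. HMMR and TOP2A, at -0.57 and -0.07, each held 2 CHR motifs and several CCAAT boxes. The CHR motifs lay at -28 and -22 in HMMR and at -194 and -151 in TOP2A. CENPE, KIF2C and CKAP2, at -0.65, -0.57 and -0.35, held neither motif. These genes were set side by side with their values known, and they are too few for a comparison. In the plot of motif positions, genes without either motif stand near the top, in the middle and, with CDC25C at -0.21, further down.

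Because leaf-treated arrays 1 and 3 had narrower distributions, the difference was recomputed under other scalings. Quantile normalization gives every array the same distribution, and the median log2 fold change of the 5396 brighter clusters was then -0.00663, with 51.3% below 0. The 48 genes had a median of -0.24, with -0.31, -0.18 and -0.20 on leaf-treated arrays 1, 2 and 3. Under it 44 of 48 were below 0, and the groups did not overlap for 27, 56.2%, against 9.49% of all clusters and 13% of the brighter ones. Centring each array on its median gave -0.41 for the 48 genes, against -0.17 for the brighter clusters, and no overlap for 35, 72.9%, against 17.9% of all clusters and 29.3% of the brighter ones. Leaf-treated array 2 had medians of -0.16, -0.18 and -0.18 as deposited, after quantile normalization and after centring. The part of the unequal distributions in the lower values was not tested.

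**Figure D3:**
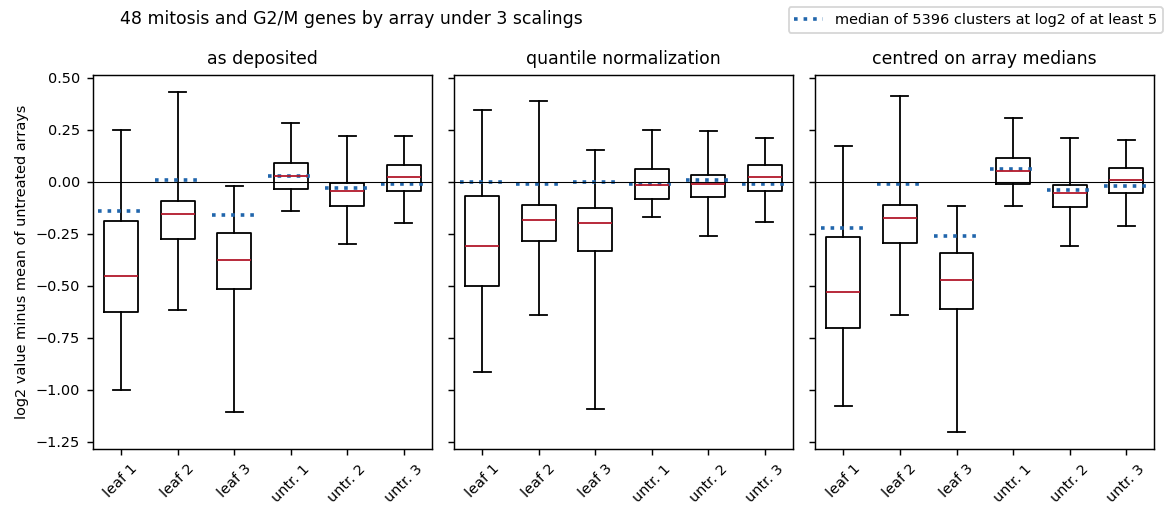
Log2 values of the 48 genes minus the mean of the 3 untreated arrays, for each array, as deposited, after quantile normalization and after centring on array medians; boxes span the quartiles, red lines are medians, whiskers reach the lowest and highest gene, and dotted blue lines are the median of the 5396 clusters with a mean log2 value of at least 5. The red lines of the leaf-treated arrays lie below the dotted lines in all 3 panels, with medians of -0.31, -0.18 and -0.20 after quantile normalization.

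Within the list, the log2 fold change was also set against the brightness of each row. Across the 48 genes the mean log2 value on untreated arrays and the log2 fold change had a Pearson's r of -0.43 and a Spearman's rho of -0.41. After quantile normalization these were -0.26 and -0.28. The points share the same 6 arrays, the untreated values enter both measures, and brightness also depends on the probes of a cluster, so the correlation is a description across genes, which are not independent replicates. The plot of change against level shows where the genes lie among all clusters.

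**Figure D4:**
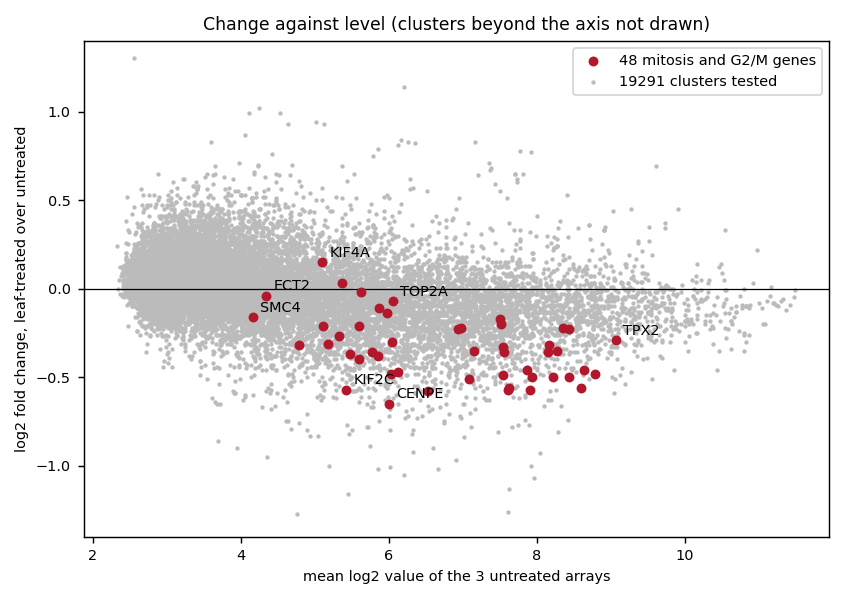
Log2 fold change, leaf-treated over untreated, against the mean log2 value of the 3 untreated arrays, for the 48 genes in red and the 19291 clusters tested in grey; the few clusters beyond the vertical axis are not drawn. The red points lie mostly below 0, from -0.65 for CENPE to 0.15 for KIF4A, and most lie among the brighter clusters.

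Other cell cycle genes, in 7 lists outside the 49, were read on the same arrays. These lists too were chosen with earlier results of these data known. Of 63 further mitosis genes, 27 had an unadjusted p under 0.05 on the lower side, 42.9% against 5.9% of all clusters and 15.5% of the brighter ones, and 0 on the higher side. Their median log2 fold change was -0.26, and the leaf-treated arrays lay below the untreated ones without overlap for 24, 38.1% against 7.41% and 17.7%. After quantile normalization the median of these 63 genes was -0.15, against -0.00663 for the brighter clusters. SGO1, shugoshin, which guards centromeric cohesion, had 5.52, 5.80 and 5.86 in leaf-treated cells, against 6.46, 6.45 and 6.44 in untreated cells, a log2 fold change of -0.72 (SE 0.10; adjusted p = 0.207 in limma). CENPU, a protein of the inner kinetochore, had 5.14, 5.20 and 5.08 in leaf-treated cells, against 5.56, 5.57 and 5.57 in untreated cells, a log2 fold change of -0.43 (SE 0.06; adjusted p = 0.24 in limma). Both had tightly grouped untreated arrays, and their groups did not overlap. The 1.5 fold rule of the series design was met on the lower side by 5 of the 63. The shares were 0.57% of all clusters and 1.52% of the brighter ones. The 5 genes were SPDL1, SGO1, SPAG5, SKA3 and PBK, of which those other than SGO1 are named after their values were seen.

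Genes of DNA replication and S phase, which act before G2, had 14 of 36 measured with an unadjusted p under 0.05 on the lower side, 38.9% against 5.9% of all clusters and 15.5% of the brighter ones. Their median was -0.27, against -0.10 for the brighter clusters, and 19 were lower without overlap, 52.8% against 17.7% of the brighter ones. MCM4 and MCM3, subunits of the replicative helicase, had log2 fold changes of -0.42 and -0.58, with adjusted p-values of 0.265 and 0.383 in limma. Core subunits of the anaphase-promoting complex had 6 of 15 lower at that p, 40%, and a median of -0.21, with CDC26 at -0.45 and ANAPC1 at -0.32. Cohesin, the ring that holds sister chromatids, had 5 of 12 lower at that p, 41.7%, and a median of -0.23, with the acetyltransferase ESCO1 at -0.37 and the ring subunit SMC3 at -0.28. These 3 lists had no gene with an unadjusted p under 0.05 on the higher side. After quantile normalization their medians were nearer to 0, at -0.20 for replication, -0.0866 for the anaphase-promoting complex and -0.11 for cohesin. The brighter clusters then had -0.00663.

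Of the regulators, the MuvB, DREAM and B-MYB list, which holds the complexes that act at CHR elements, had 2 of 12 with an unadjusted p under 0.05 on the lower side, 16.7%, and a median of -0.12, with E2F5 at -0.38 and RBL1, the pocket protein p107, at -0.27. Cyclins, CDKs and E2F factors of G1 had 2 of 13, 15.4%, and a median of -0.13, namely the phosphatase CDC25A at -0.40 and the kinase CDK2 at -0.61 (SE 0.25). Both shares are near the 15.5% of the brighter clusters, whose median was -0.10. Neither list had a gene past that p on the higher side. After quantile normalization the medians of these lists were -0.12 and -0.0844. Inhibitors and arrest genes had 0 of 14 measured on either side, with log2 fold changes of -0.21 to 0.30. Their median was 0.10, and it was 0.13 after quantile normalization and 0.0364 after centring. CDKN1A, the CDK inhibitor p21, had 5.27, 5.28 and 5.18 in leaf-treated cells, against 5.06, 5.12 and 5.13 in untreated cells, a log2 fold change of 0.14 (SE 0.06; adjusted p = 0.513 in limma). GADD45A, a stress gene of the G2 checkpoint, had 6.16, 6.09 and 6.07 in leaf-treated cells, against 5.82, 6.07 and 5.92 in untreated cells, a log2 fold change of 0.17 (SE 0.08; adjusted p = 0.524 in limma). For both genes the leaf-treated arrays lay above the untreated ones by little, and for GADD45A the nearest arrays were equal to 2 decimals. Differences between the lists were not tested.

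**Figure D5:**
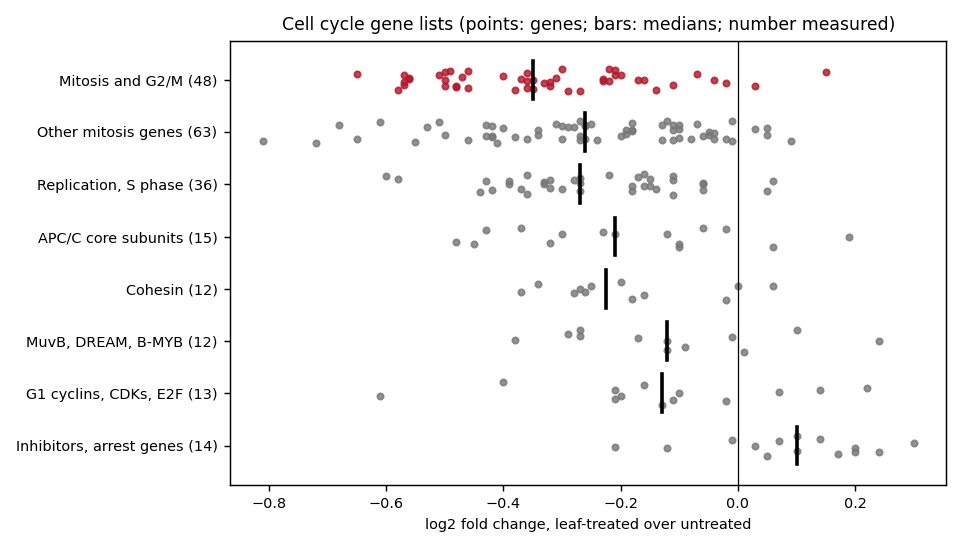
Log2 fold change, leaf-treated over untreated, of each gene (points) in the mitosis and G2/M list and in 7 other cell cycle lists, with the median of each list as a bar and the number of genes measured in brackets. The medians are -0.35 for mitosis and G2/M genes, -0.26 for other mitosis genes, -0.27 for replication and S phase genes, and 0.10 for inhibitors and arrest genes.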

How the data were processed

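Total RNA of 3 leaf-treated and 3 untreated HepG2 samples was read on Affymetrix Human Gene 1.0 ST arrays. The deposited values are log2 expression per transcript cluster, made by the authors with RMA (background subtraction, normalization between arrays, summary of probes). GCOS and Partek are also named in the submitters' processing notes, all without versions. The RMA options were not given in the sources used here. The distributions of the 6 arrays are unequal, which can shift bright clusters as a class. Of 33297 rows, 4468 at 0 on all arrays were left out, and 19291 of the remaining 28829 carried exactly 1 gene symbol in the platform annotation and were tested. Where a gene had several clusters, the one highest on average was kept.

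The contrast of leaf-treated over untreated arrays was fitted in limma 3.58.1 under R 4.3.3 (lmFit and eBayes, no covariate, two-sided), with Benjamini-Hochberg adjustment over the 19291 clusters and a threshold of 0.05. The fit was tested on simulated data. The members and lists were chosen with earlier results of these data known, and no p was adjusted over the list alone. Genes with values on every array are the 2 with the smallest p in each of 9 role groups, and CCNB1, CDK1, PLK1, FOXM1, TOP2A and MKI67. Of each other list the 2 genes with the smallest p are named, and CDKN1A. Genes outside this rule are given by their log2 fold change, or are said to be named after their values were seen. Promoters shown are those of the named genes with the smallest p, up to 6 with both motifs and up to 2 with neither, not on chromosome 8. Promoters came from RefSeq tables of GRCh38.p14, matched by symbol or gene identifier, and 7 genes had none in the table. The 15 alternatives were quantile normalization, median centring, a filter at a mean log2 value of 5, array weights, a robust fit with an intensity trend, plain analysis of variance, all rows, the mean of a gene's clusters, a replicate block and each array left out in turn.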

Additional observations from a re-analysis of the deposited data

How the results depend on the processing

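Under all 15 alternatives 0 of the 48 genes passed the adjustment in limma or in the analysis of variance, with a lowest adjusted p of 0.0688, reached when only clusters with a mean log2 value of at least 5 were tested. The count lower at an unadjusted p under 0.05 was 31 as reported, 28 after quantile normalization, 36 after centring, 35 with array weights and 22 with plain analysis of variance, where 5.9%, 5.38%, 9.72%, 8.11% and 3.67% of all clusters were lower. Leaving out 1 array gave 18 to 33, with 18 without leaf-treated array 1, leaf-treated array 3 or untreated array 1, and 33 without leaf-treated array 2. The count past the thresholds of the series design was 1 as reported, 0 after quantile normalization, 7 after centring and 5 with array weights. With 1 array left out it was 0 to 11. It was 0, 11 and 4 without leaf-treated arrays 1, 2 and 3, and 1, 6 and 2 without untreated arrays 1, 2 and 3. The share of all clusters past these thresholds was computed only as deposited, where it was 0.57% on the lower side. Changes in this count under the alternatives therefore cannot be set against a background. The median log2 fold change was -0.24 after quantile normalization, -0.41 after centring and -0.42 to -0.30 with 1 array left out. Among the 22 genes of the list whose values on every array were given by rule, TOP2A changed sign, to 0.03 after quantile normalization. The other 328 values of these genes kept their sign, and none passed the adjustment. Outside these 22, UBE2C changed sign after quantile normalization, to 0.07, and PRC1 after centring, to -0.03. No pairing by replicate number was seen. Same-numbered arrays had correlations of deviations of -0.11, -0.18 and 0.12, and 1 of 3 leaf-treated arrays correlated best with its own number. With 3 arrays a group, such correlations cannot exclude pairing. With the replicate number as a block the count was 26, against 4.95% of all clusters, and 1 gene met the thresholds of the series design. With 3 arrays a group and a median SE of 0.12, log2 differences of the sizes seen here did not pass the adjustment, and probes near the level of olfactory receptor genes can hide change.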
